A study of Mus musculus with 6 samples.

Results

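The lymphatic endothelial genes described here are 7 genes that mark or shape lymphatic vessels, *Prox1*, *Flt4*, *Lyve1*, *Pdpn*, *Mmrn1*, *Reln* and *Ccl21a*. They were taken by name from the 24346 gene symbols listed for each library, and all 7 were found. The rule uses no measured value, although the list was drawn up with earlier results of these data known. Expression was measured by RNA-sequencing in CD31+ CD45- endothelial cells (ECs) sorted from subcutaneous MC38 tumors, which grow from a mouse colon carcinoma cell line. The 3 WT libraries came from C57BL/6 mice and the 3 Apelin-KO libraries from Apelin-KO mice on the same C57BL/6 background, aged 8 to 10 weeks, with tumors taken at day 19 after inoculation. Both groups carry the word saline in their labels, which the methods do not describe for this experiment. The comparison asked how loss of Apelin, a peptide ligand that ECs of these tumors secrete, changed the transcripts of tumor ECs. Nothing in the labels ties the libraries to separate experiments, so the p-values below measure the spread between these 6 libraries.

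Lymphatic ECs arise from venous ECs when the homeobox transcription factor PROX1 is switched on, and they need PROX1 to keep their identity. They respond to VEGF-C through its receptor VEGFR-3, the product of *Flt4*, and collect fluid and immune cells from the tissue. They share CD31 with blood ECs, so a CD31+ CD45- sort holds both kinds of vessel. CCL21 from lymphatic ECs attracts dendritic cells and T cells that carry the receptor CCR7.

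The mouse genome carries several nearly identical copies of the *Ccl21* gene, and their sequences bear on every value listed for *Ccl21a*. In the GENCODE annotation of GRCm38, *Ccl21a* lies on chromosome 4 from 42772860 to 42773993 on the minus strand, with 4 exons and 399 coding bases before the stop codon. Another 4 copies on the same chromosome, *Ccl21b*, *Gm13304*, *Gm10591* and *Gm21541*, each differ from *Ccl21a* at 2 coding bases, T84A and C194T, counted from 1 at the A of the start codon with the base of *Ccl21a* first. The spliced stretches around these positions, 5′ to 3′ on the coding strand with the differing base in capitals, show how little separates the copies.
Ccl21a, coding bases 69 to 98: cagtgatggagggggTcaggactgctgcct
Ccl21b, coding bases 69 to 98: cagtgatggagggggAcaggactgctgcct
Ccl21a, coding bases 179 to 208: cggcaatcctgttctCaccccggaagcact
Ccl21b, coding bases 179 to 208: cggcaatcctgttctTaccccggaagcact
Of the 325 different 75-base stretches of the *Ccl21a* coding sequence, the read length used here, 175 (53.8%) also occur in *Ccl21b*. A read from such a stretch can be placed on more than one gene. The files also list *Gm1987*, a RefSeq symbol whose transcript GENCODE links to a gene on the scaffold JH584294.1. GENCODE names the transcript at that place *Ccl21a* as well, with 4 exons whose coding parts have the same lengths as those of the chromosome 4 gene. *Gm1987* was singled out after its values were seen, and its sequence was not used here.

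Gene levels are given as FPKM, a fragment count divided by transcript length and by the number of mapped fragments. The FPKM summed to between 489396 and 529018 per library, and 14089 to 14621 genes per library were above 0. Read counts were not among the files used. FPKM of weakly expressed genes move in steps of whole reads, and in 3749 genes annotated with only 1 transcript these steps put the depth at 9060000 to 10240000 reads. Of the low values, 67.1% to 70.6% then fell within 0.1 of a whole read, so that the depths are approximate. They also rest on an assumed fragment length, as do the read numbers derived from them. *Apln*, the gene removed in the Apelin-KO mice, stood at 432, 435 and 504 FPKM in WT and at 9.96, 17.5 and 24.3 FPKM in Apelin-KO, replicates 1, 2 and 3 in that order, as for every gene below. The log2 fold change of *Apln* was 4.73 ± 0.29 (SE), with an adjusted p of 0.00747 by limma.

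The difference between WT and Apelin-KO was fitted by limma on log2(FPKM + 1), and positive values mean a higher level in WT. The fit covered the 10964 genes whose mean reached 1 FPKM, a filter that all 7 lymphatic genes passed. This scale understates the change of genes with low FPKM. Of all genes tested, 1 (0.00912%) had an adjusted p under 0.05, *Apln* itself, and 1033 (9.42%) had an unadjusted p under 0.05, with 567 (5.17%) of those tested higher in WT. The 2 groups did not overlap for 1577 genes (14.4%), of which 725 (6.61% of those tested) were higher in WT. None of the 7 lymphatic genes had an adjusted or an unadjusted p under 0.05, and for none were the groups separate. Their median log2 fold change was 0.45, against -0.01 over all genes tested, with 4 of the 7 above 0. The median of the 7 was 0.13 both without WT replicate 1 and without Apelin-KO replicate 1. Without any 1 of the other 4 libraries the median was between 0.47 and 0.60. Of these fits, that without Apelin-KO replicate 2 did not cover *Ccl21a*, which fell under the filter there.

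*Prox1*, the transcription factor that sets lymphatic identity, lies on chromosome 1 from 190118035 to 190170714 on the minus strand (positions here are on GRCm38). Its level was 17.7, 7.81 and 8.83 FPKM in WT replicates 1, 2 and 3, and 6.08, 9.21 and 7.38 FPKM in Apelin-KO replicates 1, 2 and 3. WT replicate 1 was the highest, 1.92 times the next library, and the other 5 libraries lay between 6.08 and 9.21 FPKM with the genotypes mixed. The means were 11.5 ± 5.46 FPKM in WT and 7.56 ± 1.58 FPKM in Apelin-KO (SD, n = 3 each), a log2 fold change of 0.47 ± 0.29 (SE). The difference was not larger than the spread between replicates (adjusted p = 0.643 by limma).

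*Flt4* encodes VEGFR-3, the receptor for VEGF-C, and lies on chromosome 11 from 49609263 to 49652739 on the plus strand. It is also found on the sprouting blood vessels of tumors. It had the highest mean level of the 7 genes, 139, 83.1 and 109 FPKM in WT and 104, 119 and 102 FPKM in Apelin-KO. WT held both the highest and the lowest library, and the 3 Apelin-KO libraries lay between them. The means, 110 ± 27.8 and 108 ± 9.10 FPKM (SD, n = 3 each), differed by a log2 fold change of -0.00065 ± 0.19 (SE), with a 95% interval from -0.45 to 0.44.

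*Lyve1*, a hyaluronan receptor of the initial lymphatics through which leukocytes enter, lies on chromosome 7 from 110850607 to 110863239 on the minus strand. It stood at 84.8, 24.0 and 29.6 FPKM in WT and at 20.4, 43.6 and 68.2 FPKM in Apelin-KO. The libraries of each genotype ran from low to high, and the 2 highest, WT replicate 1 and Apelin-KO replicate 3, came from different genotypes. The log2 fold change was -0.0017 ± 0.56 (SE), with a 95% interval from -1.34 to 1.33, so that a 2-fold change in either direction lies within it.

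*Pdpn* encodes podoplanin, the platelet-binding glycoprotein of lymphatic ECs that keeps blood and lymph vessels apart and that fibroblasts also make. It lies on chromosome 4 from 143267431 to 143299564 on the minus strand. Its level was 23.1, 11.8 and 11.0 FPKM in WT and 6.25, 11.3 and 15.3 FPKM in Apelin-KO. The lowest library was Apelin-KO replicate 1 and the highest WT replicate 1, and the other 4 lay between 11.0 and 15.3 FPKM. The log2 fold change was 0.45 ± 0.36 (SE), with an adjusted p of 0.719 by limma. It was 0.13 without either of those 2 libraries, each left out in turn.

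*Mmrn1* encodes multimerin 1, a secreted protein of lymphatic ECs and of platelets, on chromosome 6 from 60924976 to 60989378 on the plus strand. It was the second most abundant of the 7 genes, at 167, 61.8 and 69.7 FPKM in WT and 43.2, 68.7 and 67.8 FPKM in Apelin-KO. WT replicate 1 was 2.40 times the next library, and 4 of the other 5 lay between 61.8 and 69.7 FPKM. The log2 fold change was 0.61 ± 0.39 (SE), with an adjusted p of 0.646 by limma. Of 8 platelet and megakaryocyte genes, 6 were under the filter and *Gp6* and *Treml1* were listed at 0. The summed level of the 8 was 8.58 to 10.8 FPKM in WT and 7.11 to 8.92 FPKM in Apelin-KO.

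*Reln* encodes reelin, a secreted matrix glycoprotein made by ECs of collecting lymphatic vessels, on chromosome 5 from 21884454 to 22344702 on the minus strand. It stood at 11.3, 4.49 and 3.92 FPKM in WT and at 2.77, 3.26 and 4.02 FPKM in Apelin-KO. WT replicate 1 was 2.53 times the next library, and WT replicate 3 lay below Apelin-KO replicate 3. Among the 7 genes *Reln* had the lowest p, with a log2 fold change of 0.68 ± 0.34 (SE), an unadjusted p of 0.0846 and an adjusted p of 0.574 by limma. Without WT replicate 3 the log2 fold change was 0.93 and the unadjusted p 0.0320, and without WT replicate 1 it was 0.27 with an unadjusted p of 0.146.

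*Ccl21a*, as listed, was at 0.177, 0.058 and 0.484 FPKM in WT and at 0.078, 39.1 and 0.18 FPKM in Apelin-KO. A single library, Apelin-KO replicate 2, held nearly all of it. With the longest annotated transcript and the estimated depths, these values correspond to about 268 reads in Apelin-KO replicate 2 and to 0.353 to 2.95 reads in each of the other 5 libraries. The log2 fold change was -1.60 ± 1.30 (SE), with an adjusted p of 0.721 by limma, and without that 1 library the gene fell under the filter. *Ccl21b*, *Ccl21c* and *Gm13304* were listed at 0 in all 6 libraries.

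*Gm1987*, the other entry that GENCODE names *Ccl21a*, carried most of the listed *Ccl21* signal in every library, Apelin-KO replicate 2 included. Its level was 791, 299 and 332 FPKM in WT and 162, 202 and 228 FPKM in Apelin-KO. All 3 WT libraries were above all 3 Apelin-KO libraries, and WT replicate 1 was 2.38 times the next library. The means were 474 ± 275 FPKM in WT and 197 ± 32.9 FPKM in Apelin-KO (SD, n = 3 each), a ratio of 2.40. The log2 fold change was 1.13 ± 0.36 (SE), with an unadjusted p of 0.0170 and an adjusted p of 0.501 by limma, and the exact two-sided permutation p was 0.1, the smallest that 3 against 3 can give. Without WT replicate 1 the log2 fold change of *Gm1987* was 0.69 ± 0.17 (SE), and the other 2 WT libraries were still above the 3 Apelin-KO libraries. The unadjusted p of *Gm1987* was 0.0565 without Apelin-KO replicate 1 and 0.0729 with each gene's own variance. The adjusted p did not pass the threshold in any fit, and a gene singled out for its values carries no independent test.

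When the 5 listed *Ccl21* entries were added up in each library, an alternative chosen after the values were seen, the sum was 791, 299 and 333 FPKM in WT and 162, 241 and 228 FPKM in Apelin-KO. The groups did not overlap, and the log2 fold change was 1.04 ± 0.37 (SE) with an unadjusted p of 0.0259 and an adjusted p of 0.508 by limma. The direction is the reverse of that of *Ccl21a* as listed. How the reads were split between the copies was not tested, and the level of each copy is uncertain. In Apelin-KO replicate 2, the 39.1 FPKM listed for *Ccl21a* stood beside 202 FPKM for *Gm1987*.

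**Figure D1:**
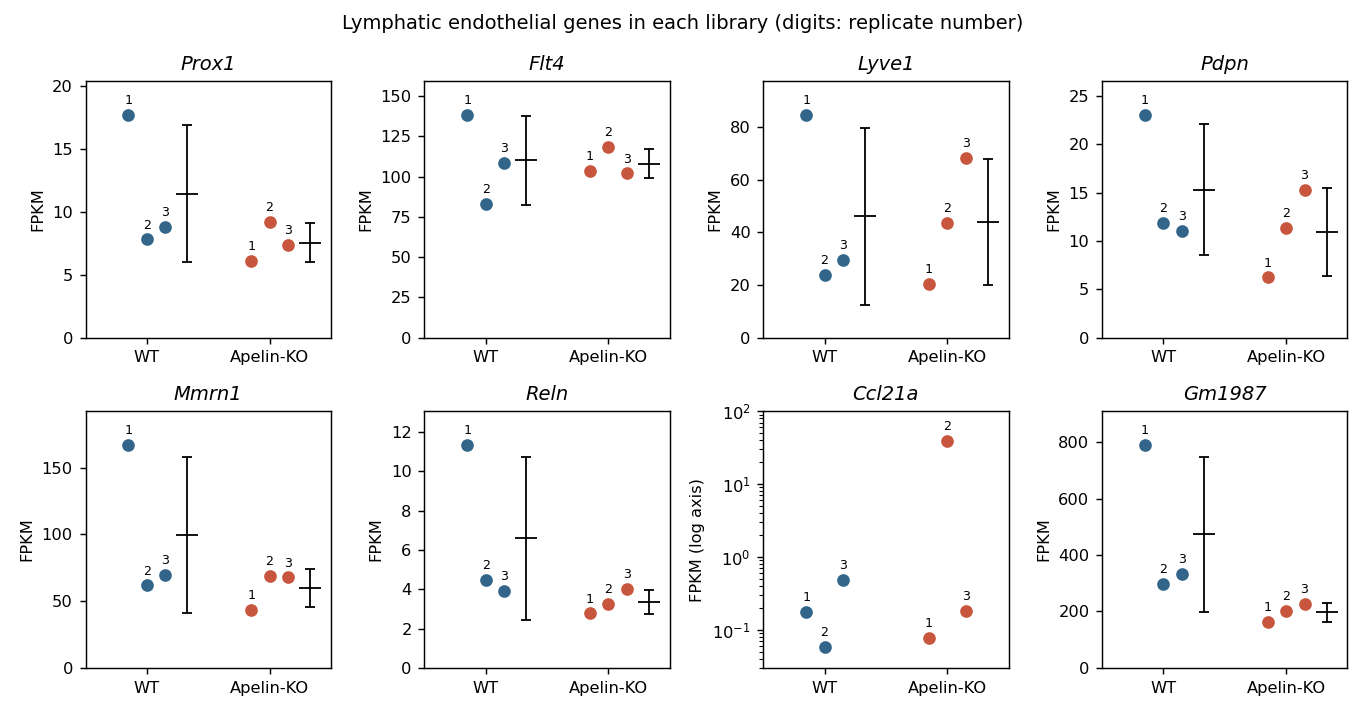
Levels of the 7 lymphatic endothelial genes and of *Gm1987*, in FPKM, in the 3 WT (blue) and 3 Apelin-KO (red) libraries, with the mean and SD of each group as a bar beside its points (no mean for *Ccl21a*, whose axis is logarithmic). WT replicate 1 is the highest library for each gene but *Ccl21a*, which reaches 39.1 FPKM in Apelin-KO replicate 2 and at most 0.484 FPKM elsewhere.

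Ordered by the mean over the 6 libraries, the levels were 109 FPKM for *Flt4*, 79.7 for *Mmrn1*, 45.1 for *Lyve1*, 13.1 for *Pdpn*, 9.51 for *Prox1*, 6.68 for *Ccl21a* and 4.97 for *Reln*. The ranges of neighbours over the 6 libraries overlapped at each step of this order. Within libraries the order was steadier. *Lyve1* was above *Pdpn*, and *Pdpn* above *Prox1*, in 6 of 6 libraries, and *Flt4* was above *Mmrn1*, and *Mmrn1* above *Lyve1*, in 5 of 6. The place of *Ccl21a* came from 1 library, and it was above *Reln* in 1 of 6.

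WT replicate 1 was the highest library for most of these genes. It held the highest value of 6 of the 7, the exception being *Ccl21a*, whereas it was the highest library for 12.8% of all genes tested. Against the median of the other 5 libraries, its level was 2.90 times higher for *Reln*, 2.86 for *Lyve1*, 2.47 for *Mmrn1*, 2.27 for *Prox1*, 2.04 for *Pdpn* and 1.34 for *Flt4*, and 3.48 for *Gm1987*. WT replicate 1 was at least 2-fold above every other library for 39 genes of 10964 (0.356%), a count like the 40 of WT replicate 2 and above the 8 to 26 of the other 4 libraries. Among the 39 were *Reln*, *Mmrn1*, *Gm1987*, *Tbx1* and *Ptx3*. At the other end, Apelin-KO replicate 1 was the lowest library for *Prox1*, *Lyve1*, *Pdpn*, *Reln* and *Mmrn1*. The share of all genes tested that were lowest in it was not computed. It also held the lowest sums of the macrophage and fibroblast markers described below, 92.9 and 136 FPKM. In bulk RNA, fewer cells of a type and less RNA per cell cannot be told apart. The levels of the lymphatic genes therefore do not say how many lymphatic ECs each sort held.

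**Figure D2:**
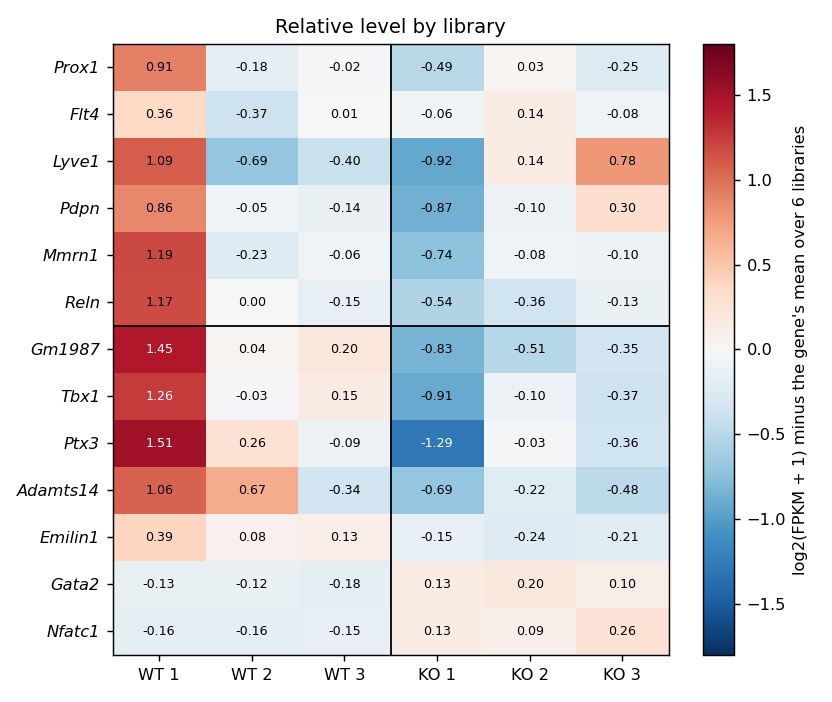
Level of each gene in each library as log2(FPKM + 1) minus the gene's own mean over the 6 libraries, for 6 lymphatic endothelial genes above the line and for *Gm1987* and 6 other lymphatic genes below it. WT 1 is above the mean for the first 11 genes shown, and *Gata2* and *Nfatc1* are above it only in the 3 Apelin-KO libraries.

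**Figure D3:**
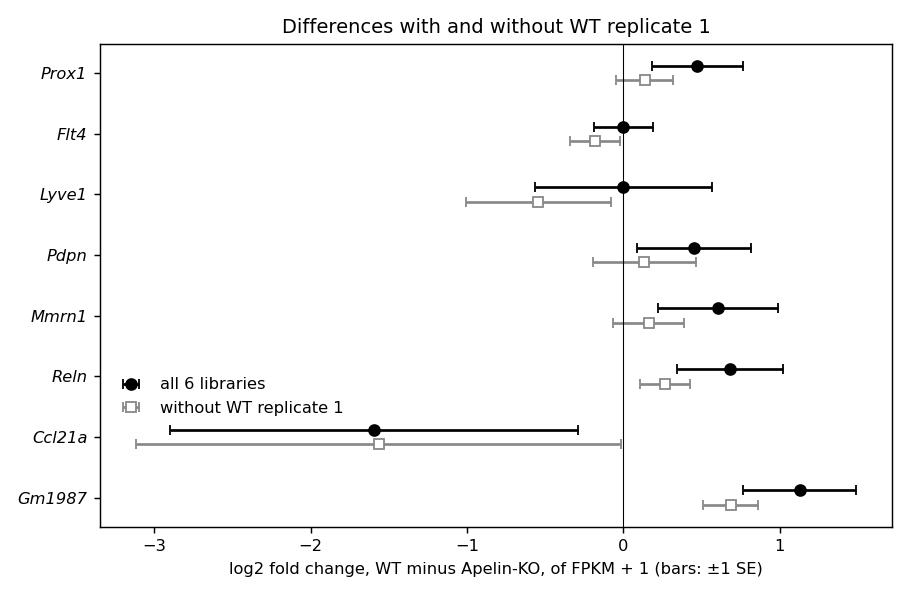
Log2 fold change of FPKM + 1, WT minus Apelin-KO, with bars of 1 SE, in all 6 libraries (filled circles) and without WT replicate 1 (open squares). *Prox1* moves from 0.47 to 0.14, *Lyve1* from -0.0017 to -0.55, *Mmrn1* from 0.61 to 0.16 and *Gm1987* from 1.13 to 0.69.

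Several of the genes varied together across the 6 libraries, which share their sort and, for WT replicate 1, a single high point. On log2(FPKM + 1), the Pearson correlation with *Prox1* over the 6 libraries was 0.981 for *Mmrn1*, 0.925 for *Reln*, 0.834 for *Pdpn*, 0.759 for *Flt4*, 0.707 for *Lyve1* and 0.0515 for *Ccl21a*, and 0.921 for *Gm1987*. Spearman's rho was 0.886 for *Mmrn1* and 0.486 for both *Reln* and *Pdpn*. When the 2 libraries farthest from the median of *Prox1* (WT replicate 1 and Apelin-KO replicate 1) were left out, r was 0.516 for *Mmrn1* and 0.686 for *Flt4*, but -0.742 for *Reln*, -0.824 for *Pdpn*, -0.291 for *Lyve1* and -0.0558 for *Gm1987*. The relations of *Reln*, *Pdpn*, *Lyve1* and *Gm1987* with *Prox1* therefore rest on those 2 libraries.

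Over the same 6 libraries, the tested genes most like *Prox1* were *Gpm6a* (r = 0.990), *Gap43* (0.989) and *Npat* (0.986). For *Mmrn1* they were *Col23a1* and *Cdh11* (both 0.997) and *Pard6g* (0.991). *Pard6g* stood at 35.3 FPKM in WT replicate 1, at 8.89 in Apelin-KO replicate 1 and at 13.9 to 15.3 in the other 4 libraries. *Reln* was most like *Fbxo30* (0.986), *Aspa* and *Vps37c* (both 0.982). *Lyve1* was most like *Trim62* (0.991), *1190002N15Rik* (0.986) and *Phf3* (0.982), and *Pdpn* like *Frs2* (0.990), *Fhl1* and *Nacc2* (both 0.984). *Flt4* was most like *Reep1* (0.976), *Tst* (0.972) and *Apc* (0.966). *Ccl21a* was most like the short RNAs *Mir214*, *Mir8097* and *Snora70* (0.997 each), all listed at 0 except in Apelin-KO replicate 2. These are the highest of 10963 correlations per gene, each over 6 points.

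Of the members, *Mmrn1* had the highest correlation with *Prox1*, and the promoters of both, taken from RefSeq on GRCm38.p6, are shown because SOX factors act upstream of *Prox1* in the lymphatic lineage. Promoter windows of 300 bases were found for 6 of the 7 genes, 7 windows in all, with 2 start sites for *Prox1*. The window of *Prox1* printed here is the one with a match, and the other, chr1:190170778-190171077, held neither motif. The capitals mark the HMG-box letters searched on both strands, AACAAT and ACAAAG, spellings that share ACAA.
Prox1, minus strand, chr1:190169466-190169765: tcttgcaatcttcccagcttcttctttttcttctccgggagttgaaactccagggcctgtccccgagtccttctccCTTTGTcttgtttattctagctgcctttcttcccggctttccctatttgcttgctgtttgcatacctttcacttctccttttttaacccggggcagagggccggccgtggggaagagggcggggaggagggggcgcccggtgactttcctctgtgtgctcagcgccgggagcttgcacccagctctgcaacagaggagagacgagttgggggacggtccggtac
Mmrn1, plus strand, chr6:60944067-60944366: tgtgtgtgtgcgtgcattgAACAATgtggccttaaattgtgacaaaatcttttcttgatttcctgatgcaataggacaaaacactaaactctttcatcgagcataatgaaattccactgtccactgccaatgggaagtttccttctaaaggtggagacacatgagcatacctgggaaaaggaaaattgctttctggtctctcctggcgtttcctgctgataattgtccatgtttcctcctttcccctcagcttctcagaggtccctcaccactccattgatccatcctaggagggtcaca
AACAAT was found in 1 of the 7 windows and in 10.7% of all 32851 promoter windows, and ACAAAG in 2 of the 7 windows and in 18.7% of all. These are matches of letters, and they were not linked to any measurement here.

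The level of each gene was also divided by that of *Prox1* in the same library, a step added after the values were seen. Against *Prox1*, the groups did not overlap for 1359 of the other 10963 genes tested (12.4%). *Gm1987* stood at 44.6, 38.2 and 37.7 times *Prox1* in WT and at 26.7, 22.0 and 30.8 times *Prox1* in Apelin-KO. The 3 WT libraries were above the 3 Apelin-KO libraries, and WT replicate 1 was no longer far from the other 2. *Flt4* stood at 7.82, 10.6 and 12.3 times *Prox1* in WT and at 17.1, 12.9 and 13.8 times *Prox1* in Apelin-KO, so that here the Apelin-KO libraries were above. *Mmrn1* held a nearly fixed ratio, 7.90 to 9.43 times *Prox1* in WT and 7.11 to 9.18 times in Apelin-KO. The ratios of *Lyve1*, *Pdpn*, *Reln* and *Ccl21a* overlapped between the groups. Each exact two-sided permutation p for *Gm1987* and *Flt4* was 0.1, the smallest possible.

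Among 43 other genes of lymphatic development and function, 33 passed the filter, 10 did not, and 3 of those 10 were listed at 0 in all libraries. Of the 33, 4 had an unadjusted p under 0.05 with higher levels in WT and 2 with higher levels in Apelin-KO, together 6 of 33 beside the 9.42% of all genes tested, and 27 did not pass. None had an adjusted p under 0.05, the lowest being 0.501 by limma. The groups were separate for 8 of the 33, 3 higher in WT and 5 higher in Apelin-KO, beside 14.4% of all genes tested in either direction and 6.61% higher in WT. The median log2 fold change of the 33 was -0.12.

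Of 8 growth factor and processing genes, 4 were tested, 2 with a log2 fold change above 0 and 2 below it. *Vegfc*, the ligand of VEGFR-3, was at 39.0, 40.4 and 39.7 FPKM in WT and 33.4, 36.9 and 30.2 FPKM in Apelin-KO. The groups were separate but close, with a log2 fold change of 0.24 ± 0.11 (SE) and an unadjusted p of 0.0565 by limma. *Adamts14*, a protease related to the one that activates VEGF-C, was at 3.32, 2.28 and 0.631 FPKM in WT and 0.277, 0.778 and 0.485 FPKM in Apelin-KO, with a log2 fold change of 0.93 and an unadjusted p of 0.0307. Without WT replicate 1 *Adamts14* fell under the filter, and its unadjusted p was 0.0852 without WT replicate 2, 0.0906 without Apelin-KO replicate 1 and 0.0707 without Apelin-KO replicate 3. *Adm* and *Angpt2* were the 2 below 0, at -0.60 and -0.06 (unadjusted p = 0.113 and 0.883 by limma). *Ccbe1*, *Adamts3* and *Svep1*, which help VEGF-C to act, were each at or under 0.197 FPKM in every library.

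All 9 receptors and mechanosensors were tested, 8 with a fold change below 0, and none had an unadjusted p under 0.05. *Piezo1*, a stretch-gated channel needed for lymphatic valves, and *Acvrl1*, a BMP receptor, were higher in each Apelin-KO library than in any WT library, with log2 fold changes of -0.17 and -0.22. *Ramp2*, *Kdr* and *Calcrl*, the 3 with the highest mean levels, are also made by blood ECs.

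All 10 transcription factors were tested, and 3 had an unadjusted p under 0.05. *Tbx1*, a T-box factor that acts upstream of *Flt4* in lymphatic ECs, stood at 21.6, 8.25 and 9.51 FPKM in WT and 4.04, 7.82 and 6.33 FPKM in Apelin-KO, with separate groups, a log2 fold change of 0.92 ± 0.36 (SE) and an unadjusted p of 0.0391. Without WT replicate 1 the log2 fold change of *Tbx1* was 0.52 with an unadjusted p of 0.0769, and the p was 0.124 without Apelin-KO replicate 1 and 0.0716 without Apelin-KO replicate 3. Its ratio to *Prox1* was 1.06 to 1.22 in WT and 0.666 to 0.857 in Apelin-KO, again with separate groups. *Gata2* and *Nfatc1*, both needed for lymphatic valves, went the other way. *Gata2* was at 12.9 to 13.5 FPKM in WT and 15.9 to 17.1 FPKM in Apelin-KO (log2 fold change -0.29, unadjusted p = 0.0155 by limma), and *Nfatc1* at 17.9 to 18.1 and 21.5 to 24.4 FPKM (log2 fold change -0.32, unadjusted p = 0.0123 by limma). After scaling to the pan-endothelial markers both calls were lost, with log2 fold changes of -0.06 (unadjusted p = 0.697) for *Gata2* and -0.08 (unadjusted p = 0.524) for *Nfatc1*, which are -0.27 and -0.29 relative to the median of all genes on that scale. The unadjusted p of *Gata2* was also 0.0537 with libraries scaled to equal FPKM sums, 0.0518 without WT replicate 3 and 0.0501 without Apelin-KO replicate 2. *Klf2*, a flow-responsive factor, also had separate groups, with a log2 fold change of -0.27 and an unadjusted p of 0.0660.

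Of 16 surface, junction and secreted genes, 10 were tested and 2 had an unadjusted p under 0.05, both higher in WT. *Emilin1*, a matrix protein that anchors lymphatic ECs, was at 36.4 to 45.5 FPKM in WT and 29.1 to 31.0 FPKM in Apelin-KO, with a log2 fold change of 0.39 ± 0.12 (SE) and an unadjusted p of 0.0111. *Ptx3*, a secreted pentraxin, was at 15.9, 6.12 and 4.55 FPKM in WT and 1.42, 4.80 and 3.62 FPKM in Apelin-KO, and its groups overlapped (log2 fold change 1.12, unadjusted p = 0.0493 by limma). Without WT replicate 1 its log2 fold change was 0.65 with an unadjusted p of 0.129, and the p was 0.155, 0.0595 and 0.0760 without Apelin-KO replicate 1, WT replicate 2 and Apelin-KO replicate 3. *Ackr2*, a chemokine-scavenging receptor of lymphatic ECs, was at 51.1 to 88.3 FPKM in WT and 53.4 to 61.7 FPKM in Apelin-KO. *Marco* was listed at 0 throughout, and *Ackr4* and *Stab2* did not exceed 0.519 FPKM.

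**Figure D4:**
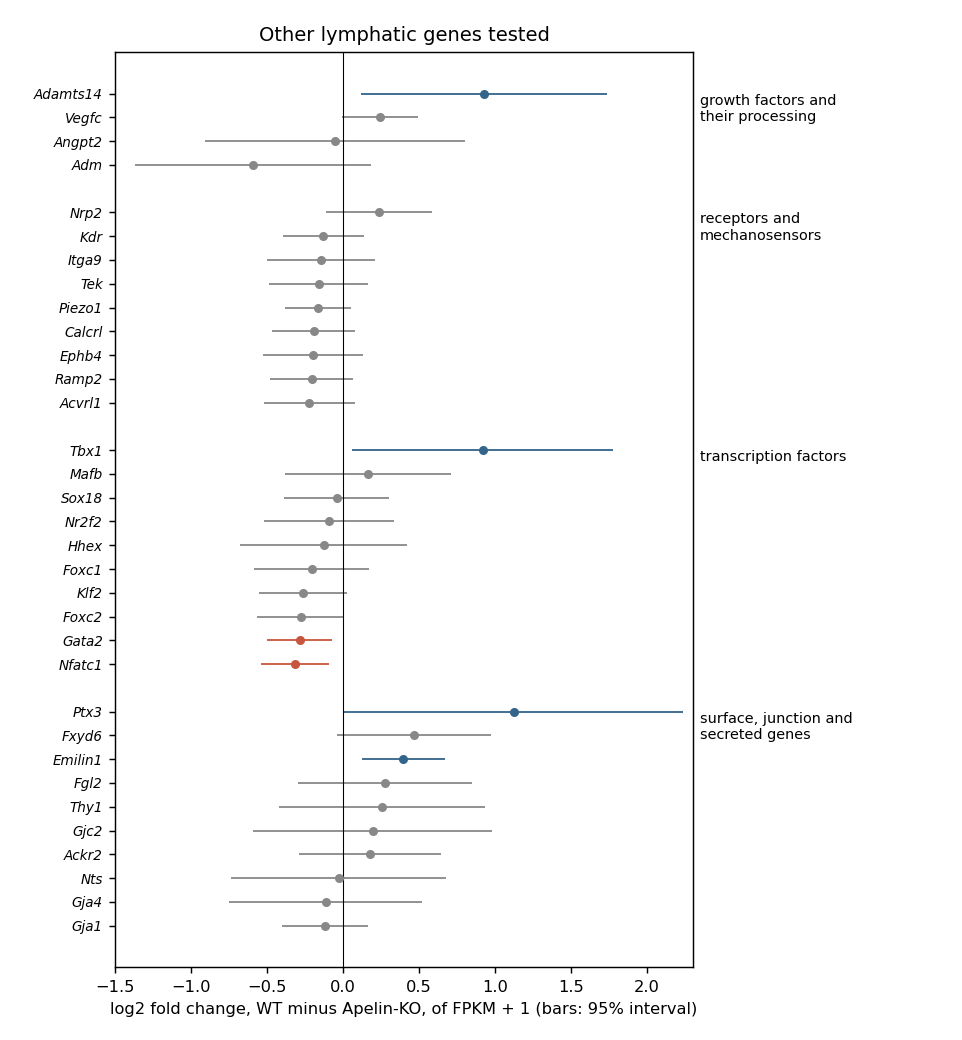
Log2 fold change of FPKM + 1, WT minus Apelin-KO, with its 95% interval, for the 33 other lymphatic genes tested, by group. Blue marks the 4 genes with an unadjusted p under 0.05 and a higher level in WT, red the 2 with a higher level in Apelin-KO, and grey the other 27.

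Markers of other cells and of ECs in general are given beside these results, and their part in them was not tested. No marker had an adjusted p under 0.05, the lowest being 0.214 by limma. Over all genes tested, 9.42% had an unadjusted p under 0.05 and 14.4% had separate groups, and the marker counts below stand beside these shares. The summed level of 10 pan-endothelial markers was 3530 to 4123 FPKM in WT and 4260 to 4527 FPKM in Apelin-KO, without overlap, and *Pecam1*, *Cdh5* and *Tie1* had an unadjusted p under 0.05 and lower levels in WT. The sum of 8 blood endothelial markers ran from 4754 to 5766 FPKM in WT and from 5382 to 5734 FPKM in Apelin-KO. Of these 8, 7 had a log2 fold change below 0, *Vwf* and *Sox17* had an unadjusted p under 0.05 with lower levels in WT (0.0368 and 0.0180 by limma), and for 3 the groups were separate. The sum of 8 pericyte markers was 136 to 178 FPKM in WT and 184 to 211 FPKM in Apelin-KO, without overlap. Most of this sum was *Kcnj8* and *Abcc9*, with means of 85.5 and 69.1 FPKM, and the groups of each of these genes overlapped. Of the 6 pericyte markers tested, 5 had a log2 fold change below 0, and *Rgs5* had a log2 fold change of -0.98 with an unadjusted p of 5.86e-05, and this was the gene with the adjusted p of 0.214 by limma. All 11 macrophage markers tested had a positive log2 fold change, with a median of 1.24, and 5 of them (*Ptprc*, *Adgre1*, *Mrc1*, *C1qa* and *C1qc*) an unadjusted p under 0.05. The groups overlapped for each of the 11, and the sum of all 12 on the list was 225 to 866 FPKM in WT and 92.9 to 275 FPKM in Apelin-KO. Some macrophages also make *Lyve1*, and the CD45- gate was meant to leave macrophages out. The sum of 10 fibroblast markers was 203 to 353 FPKM in WT and 136 to 209 FPKM in Apelin-KO, with overlap, and 5 of 7 tested had an unadjusted p under 0.05. The sum of 8 epithelial tumor cell markers was 7.89 to 12.1 FPKM in WT and 8.96 to 21.0 FPKM in Apelin-KO, also with overlap. Nearly all of it was *Krt20*, at 6.41 to 20.6 FPKM, and the other 7 were under the filter. Of 5 markers of fibroblastic reticular cells, which make CCL21 in lymph nodes, 4 were under the filter and 1 was listed at 0 throughout, and *Il7* had a log2 fold change of 0.68 (unadjusted p = 0.00927 by limma). Most of these marker calls were lost when 1 library was left out. *Pecam1*, *Cdh5*, *Tie1*, *Vwf*, *Sox17*, *Ptprc*, *Adgre1*, *C1qa* and *C1qc* had unadjusted p-values of 0.0606 to 0.127 without WT replicate 2 and of 0.0550 to 0.0930 without Apelin-KO replicate 3, and all but *Sox17* were lost without WT replicate 1 (0.0618 to 0.121). *Mrc1*, *Il7* and *Rgs5* kept an unadjusted p under 0.05 in each such fit, as did *Dcn* alone among the 5 fibroblast markers. In the fit with each gene's own variance, the 5 macrophage calls were lost, with unadjusted p-values from 0.0614 (*Mrc1*) to 0.135 (*C1qa*). *Il7* and *Dcn* kept theirs in that fit (0.0399 and 0.0258).

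**Figure D5:**
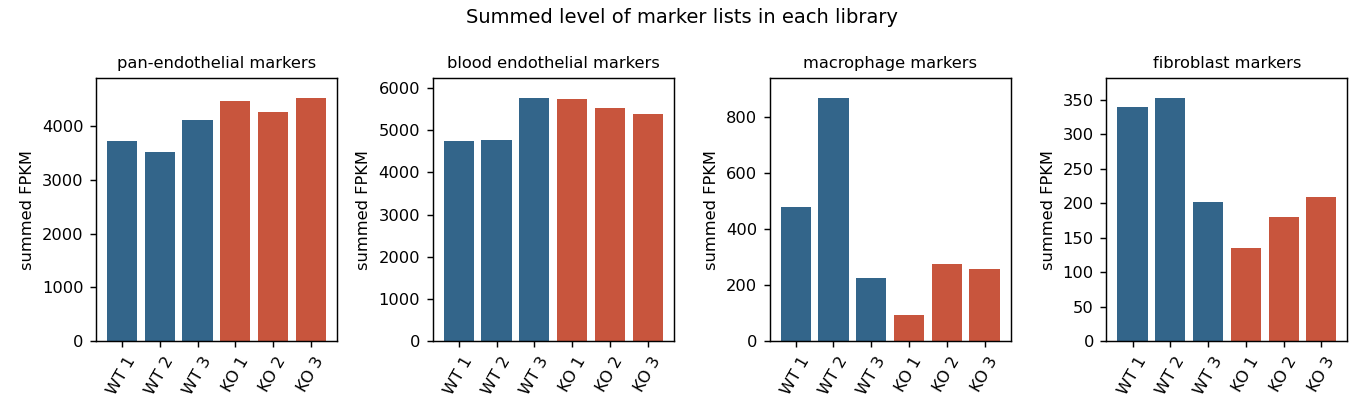
Summed FPKM of 4 marker lists in each of the 3 WT (blue) and 3 Apelin-KO (red) libraries. The pan-endothelial sum is lower in each WT library than in any Apelin-KO library, and the macrophage sum is highest in WT 2 at 866 FPKM.

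When the libraries were scaled to the pan-endothelial markers, the median log2 fold change of all genes moved to 0.21, and 97.1% of the calls at an unadjusted p under 0.05 were then higher in WT, against 54.9% with the values as deposited. On that scale 2002 of the 10964 genes tested (18.3%) had an unadjusted p under 0.05, among them *Prox1*, *Reln* and *Mmrn1*, with log2 fold changes of 0.69, 0.88 and 0.85. Relative to the median of all genes on the same scale, these were 0.48, 0.67 and 0.64, close to the values given above, and their adjusted p-values by limma were 0.263 to 0.273. *Flt4* and *Lyve1*, at 0.03 above that median each, remained without a difference larger than the spread between replicates.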

How the data were processed

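The study sorted CD31+ CD45- cells from MC38 tumors, made stranded mRNA libraries and sequenced single-end reads of 75 bases. Per the labels and the study's methods, the authors mapped reads to mm10 and computed FPKM with Cufflinks. The submitters' processing notes name TopHat2 2.1.1, Bowtie2 2.2.4, SAMtools 1.0 and Cufflinks 2.2.1. The study's methods give other versions of TopHat, Bowtie2 and SAMtools, and which were used is not settled here. The annotation and strand setting are not given in the sources used here. The deposited FPKM were used without further scaling, on log2(FPKM + 1), for genes whose mean reached 1 FPKM. Groups, 3 WT and 3 Apelin-KO, came from the sample titles. They were compared with limma 3.58.1 (R 4.3.3), moderated variance without a trend, two-sided, with Benjamini-Hochberg adjustment over all genes tested. The fit was tested on simulated data. Single genes were also compared by exact permutation in scipy 1.17.1. Gene models are GENCODE on GRCm38, and promoters are from RefSeq.

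The members and gene lists were chosen with earlier results of these data known. The rule for named genes took the 7 members, *Apln*, the *Ccl21* copies, list genes with an unadjusted p under 0.05 or separate groups and up to 3 more by level, and the 3 genes most like each member; not all of these are printed. *Gm1987*, *Gm13304*, the *Ccl21* sum and the ratios to *Prox1* were chosen after the values were seen. Alternatives changed the pseudocount, filter, scaling, variance and libraries, and 1 fit had a replicate block.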

Additional observations from a re-analysis of the deposited data

How the results depend on the processing

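No member had an adjusted p under 0.05 under any alternative run. The count of genes with an adjusted p under 0.05, 1 with all libraries, was 0 with each gene's own variance, 2 with an intensity trend, with the filter at 5 FPKM, with no filter and with a pseudocount of 0.01, and 0 to 3 when 1 library was left out. It was 0 without WT replicate 2 and without Apelin-KO replicate 2, where the adjusted p of *Apln* was 0.077 and 0.108, and 3 without WT replicate 1. The count with an unadjusted p under 0.05 was 2002 after scaling to the pan-endothelial markers and 536 to 1228 when 1 library was left out, of which 536 was without WT replicate 2 and 675 without WT replicate 1. Of the 7 lymphatic genes, 3 had an unadjusted p under 0.05 after scaling to the pan-endothelial markers, 1 with *Ccl21a* replaced by the *Ccl21* sum, and 0 to 1 when 1 library was left out (*Reln*, without WT replicate 3). Of the other lymphatic genes, 6 had an unadjusted p under 0.05 with all libraries, and 3 to 8 when 1 was left out, 3 being without WT replicate 1.

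The direction turned where the fold change was near 0. *Flt4* came to 0.0108 with median-of-ratios scaling, 0.0419 with equal FPKM sums and 0.244 with pan-endothelial scaling, and *Lyve1* to 0.00954, 0.0401 and 0.239. Leaving out 1 library gave -0.18 to 0.18 for *Flt4* and -0.55 to 0.39 for *Lyve1*. With pan-endothelial scaling *Acvrl1* came to 0.0190, *Nos3* to 0.0698 and *Piezo1* to 0.0769, all below 0.21, the median of all genes on that scale. *Ccl21a* turned to 1.04 when the *Ccl21* entries were added up. Unadjusted p-values rose to 0.05 or above for *Adamts14*, *Tbx1* and *Ptx3* with each gene's own variance (0.103, 0.121 and 0.143), and for *Tbx1* and *Ptx3* with no filter (0.0569 and 0.0711) and with a pseudocount of 0.01 (0.0506 and 0.0647). With a pseudocount of 0.1 that of *Ptx3* was 0.0614. With the filter at 5 FPKM, *Reln* (mean 4.97 FPKM) was not tested, and the median of the remaining lymphatic genes was 0.23. Equal FPKM sums put 64.9% of the calls at an unadjusted p under 0.05 higher in WT.

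Replicate numbers in the titles did not pair the libraries. The deviations of same-numbered libraries from their group means correlated at -0.139, 0.207 and -0.0186. With the replicate block, 1 gene had an adjusted p under 0.05, 893 genes an unadjusted p under 0.05, none of the 7 lymphatic genes, and 4 of the other lymphatic genes, *Tbx1* (0.0795) and *Ptx3* (0.0944) being lost. The FPKM files give no read counts, so counting error could not be given for single genes.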
